A study of Homo sapiens with 4 samples.

Results

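Tetraspanins are small proteins that cross the membrane 4 times and gather integrins, proteases and each other into membrane microdomains. Several of them, above all CD9, CD63 and CD81, are enriched in the membranes of extracellular vesicles and serve as their usual markers. In gut epithelium, members of the family take part in adhesion to the basement membrane, in the traffic and activity of the protease ADAM10 and in the release of vesicles. Members of the family were found by gene symbol alone (all TSPAN symbols, CD9, CD37, CD53, CD63, CD81, CD82, CD151, UPK1A, UPK1B, PRPH2 and ROM1), which found 33 of the 20322 targets in the deposited table.

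RNA came from HT-29, a human colorectal adenocarcinoma line, in 2 groups of 2 libraries. The labels give the lines as derived from a mouse liver metastasis, and in both groups the gene of the RNA-binding protein IMP1 (IGF2BP1) had been targeted with CRISPR/Cas9. IMP1-OE cells then carried a PiggyBac vector with FLAG-tagged IMP1 and a short UTR, and null cells carried an empty PiggyBac vector. The vector's promoter is not stated in the labels, nor is it stated whether replicates were separate clones or cultures, so a p-value reflects the spread between 2 libraries that may differ only technically. The series' title places IMP1 in extracellular vesicles, and the comparison asks how the mRNAs of the best-known vesicle membrane proteins stand in cells given the IMP1 vector, against cells given the empty one.

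Libraries held 9343429 to 10594813 counts, and members together took 0.482% and 0.401% of them in IMP1-OE, against 0.541% and 0.409% in null. IGF2BP1 had 71 and 112 counts in IMP1-OE, against 37 and 16 in null, so the order of the groups follows the labels, although the null libraries held counts over the floor of 3 and the difference had an edgeR adjusted p of 0.453. Of 7 colorectal epithelium markers, EPCAM, KRT8, KRT18, KRT20, CDH1 and VIL1 were well above the counting floor in every library, while the transcription factor gene CDX2 had 0 and 3 counts in IMP1-OE, against 47 and 2 in null. The 7 markers summed to 24000 and 24700 CPM (TMM-scaled counts relative to the library's total) in IMP1-OE. In null they summed to 24800 CPM in replicate 1 and 18200 CPM in replicate 2. Most of each sum was KRT8 and KRT18. EPCAM and CDH1 had 870 and 552 CPM in null replicate 2, above the 823 and 468 CPM of IMP1-OE replicate 2. KRT8, KRT18, KRT20 and VIL1 were lower in null replicate 2 than in IMP1-OE replicate 2. Of 5 leukocyte markers, PTPRC had 0 and 5 counts in IMP1-OE and 0 in both null libraries, and CD3E had 0 in all 4. The monocyte gene CD14 had 157 and 93 counts in IMP1-OE, against 192 and 478 in null. The list summed to 1900 and 1750 CPM in IMP1-OE, against 2820 and 1430 CPM in null, almost all of it the lysozyme gene LYZ. Fibroblast markers summed to 1.80 to 13.0 CPM per library and endothelium markers to 2.34 to 4.09 CPM. The null libraries differed more from each other than the IMP1-OE libraries did: the chi-square statistic per degree of freedom over genes was 20.2 between the IMP1-OE libraries and 58.6 between the null libraries.

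HT-29 cells expressed the family at very unequal levels. In TPM (the deposited transcript level, scaled by target length and therefore comparable between genes), the 8 highest members held 95.0% to 96.2% of the family's summed level in every library. The family summed to 5392 and 4555 TPM in IMP1-OE, against 6284 and 4715 TPM in null, so the groups overlap. In bulk RNA, fewer cells that express a gene and less of its RNA per cell cannot be told apart.

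CD151, which binds laminin-receptor integrins and anchors epithelia to the basement membrane, stood first by mean level, at 1140 and 928 TPM in IMP1-OE, against 1030 and 1090 TPM in null. TSPAN8, a tetraspanin of gut epithelium described in colorectal tumours, had 1030 and 757 TPM in IMP1-OE, against 1640 and 668 TPM in null. CD63, the tetraspanin of late endosomes and lysosomes, had 952 and 847 TPM in IMP1-OE, against 1190 and 757 TPM in null. These 3 mRNAs changed places from library to library, and their ranges overlap.

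CD9, a regulator of cell fusion and adhesion, followed at 624 and 574 TPM in IMP1-OE, against 824 and 699 TPM in null. TSPAN1, an epithelial tetraspanin, had 519 and 493 TPM in IMP1-OE, against 553 and 641 TPM in null. CD81, a partner of the B-cell receptor complex and a hepatitis C virus receptor, had 535 and 427 TPM in IMP1-OE, against 401 and 187 TPM in null. CD82, known as a suppressor of metastasis, had 273 and 237 TPM in IMP1-OE, against 306 and 386 TPM in null. Each of CD9, TSPAN1 and CD81 overlaps its neighbour in the order, and so does CD81 with CD82.

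Below CD82 came a gap in TPM that no library bridges. TSPAN15 was the next member, at 81.9 and 61.7 TPM in IMP1-OE, against 98.1 and 61.3 TPM in null, and it overlaps TSPAN3, which had 64.4 and 59.8 TPM in IMP1-OE, against 96.7 and 66.7 TPM in null. TSPAN4, TSPAN13 and TSPAN6 followed at mean levels of 44.4, 38.8 and 20.8 TPM over the 4 libraries. TSPAN31, TSPAN14, TSPAN12, TSPAN17 and TSPAN9 averaged 13.0 to 6.34 TPM, and TSPAN5, ROM1, CD37 and TSPAN33 3.24 to 0.759 TPM. Apart from the step below CD82, the ranges of neighbours over the 4 libraries were separate only below TSPAN3, below TSPAN6 and below TSPAN9. The length used matters most for TSPAN14, whose deposited target is 16221 nt long: its counts exceed those of TSPAN4, TSPAN13 and TSPAN6, although its TPM is lower. It also matters for TSPAN3, with a target of 6348 nt, so the gap below CD82 holds in TPM but not in counts. In null TSPAN3 had 3511 and 2075 counts, against 3359 and 1339 of CD81. In IMP1-OE it had 2291 and 2169, against 4396 and 3569 of CD81.

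**Figure D1:**
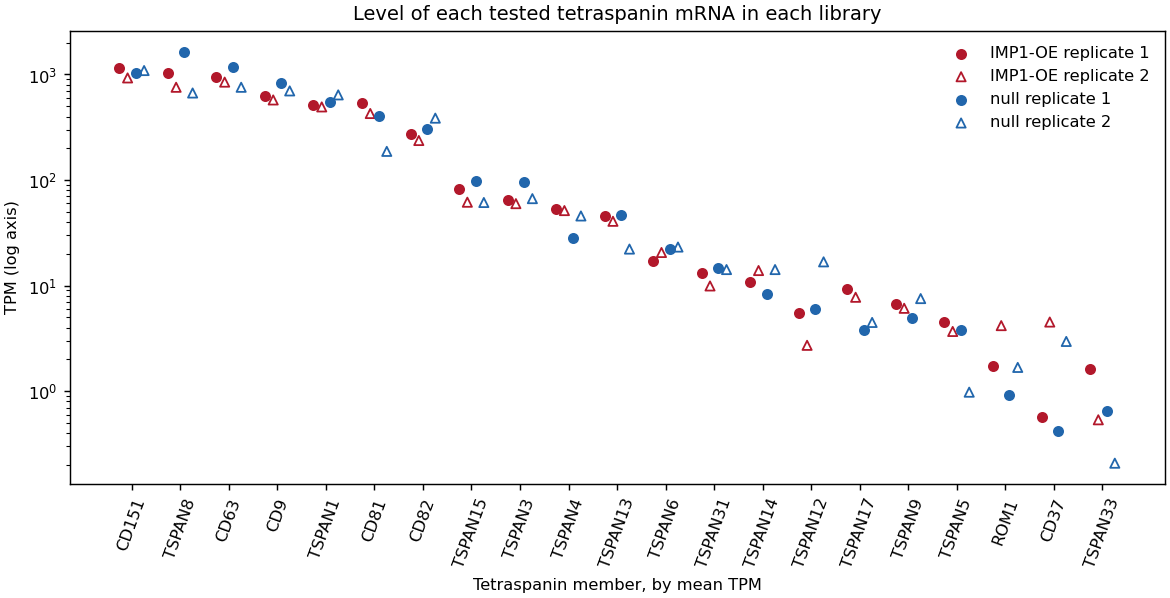
TPM on a log axis for the 21 tetraspanin genes that passed the low-count filter, ordered by mean level, with 1 point per library (IMP1-OE in red, null in blue; circle for replicate 1, triangle for replicate 2). The 7 members from CD151 to CD82 stand above the rest in every library. The triangles of null replicate 2 lie low for CD81, TSPAN13 and TSPAN5 and high for TSPAN12. For TSPAN8 the circle of null replicate 1 lies high.

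The other 12 members did not pass the low-count filter and were not tested. PRPH2, a structural protein of photoreceptor discs, TSPAN2, a gene of myelinating glia, TSPAN7, a gene of the nervous system, TSPAN16 and the leukocyte gene CD53 had 0 counts in all 4 libraries. A count of 0 allows up to 3 counts, which is 0.285 CPM in either IMP1-OE library, against 0.293 and 0.328 CPM in the null libraries, and covers counting error only. TSPAN32, a gene of blood cells, had 4 and 16 counts in IMP1-OE, against 0 and 1 in null. TSPAN10 had 0 in both IMP1-OE libraries, against 1 and 6 counts in null. UPK1A and UPK1B, the tetraspanins among the uroplakins that build the urothelial plaque, were at the floor except for 5 counts of UPK1A in IMP1-OE replicate 2. TSPAN11, TSPAN18 and TSPAN19 had at most 8 counts in any library. At this depth a difference in these members was not detectable.

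Of the 21 tested members, all had at least 10 counts in a library of each group. Fitted log2 fold changes, IMP1-OE over null, were above 0 for 10 and below 0 for 11, where 51.9% of all genes tested were below 0. The members had a median of -0.06, beside a median of -0.02 over all 12113 genes tested. None passed an adjusted p of 0.05 in edgeR's quasi-likelihood test (0 of 21, with 0% of all genes called). Members' adjusted p ran from 0.46 to 0.994. At an unadjusted p under 0.05 there were 3 members, and the share of all genes at that threshold was 10.2%. Of the 3, TSPAN17 was higher in IMP1-OE, where 4.34% of all genes were higher at that threshold, and CD82 and TSPAN12 were lower, where 5.84% were lower. These counts move with the library left out: 6 members reached that threshold without null replicate 1 (24.9% of all genes), 8 without null replicate 2 (13.9%), 1 without IMP1-OE replicate 1 (3.81%) and 0 without IMP1-OE replicate 2 (3.02%). With library totals alone as scaling, 1 member reached it (10.6% of all genes). DESeq2 also called 0 members, where it called 1.28% of the genes given an adjusted p, and 0 of the 21 members with an adjusted p pass 0.05 in the authors' deposited table, where 1.28% of genes pass. CPM values of the groups did not overlap for 11 of the 21 members, beside 43.2% of all genes tested. They were higher in IMP1-OE for 4, beside 21.3% of all genes, and lower for 7, beside 21.9%. The p-values are model-based, since permuting 2 libraries against 2 exactly gives no two-sided p under 0.333.

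CD81 was the vesicle marker with the largest fitted difference. It had 418 and 339 CPM in IMP1-OE, against 329 and 147 CPM in null, so both IMP1-OE libraries were higher, IMP1-OE replicate 2 only barely so. The log2 fold change was 0.67 (SE 0.38, adjusted p = 0.592 in edgeR). Its size rested on null replicate 2: without that library it was 0.21, and without null replicate 1 it was 1.37, with an edgeR adjusted p of 0.0173. CD81 was then the 1 member called of 21, where 6.46% of all genes tested were called. DESeq2, with the same library left out, called CD81, CD82 and TSPAN12, where 8.4% of genes were called. Without null replicate 2 it called TSPAN8, CD9 and TSPAN3 instead, where 2.11% of genes were called.

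CD9 had 471 and 440 CPM in IMP1-OE, against 651 and 530 CPM in null, and the groups did not overlap. The log2 fold change was -0.37 (SE 0.18, adjusted p = 0.536 in edgeR). CD63 had 617 and 559 CPM in IMP1-OE, which lie between the 810 and 493 CPM of the null libraries. Its log2 fold change was -0.15 (SE 0.26), and the direction turned without null replicate 1 (0.25).

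Set against each other within a library, the 3 vesicle markers need no scaling between libraries. The CD81 to CD9 ratio of TPM was 0.857 and 0.744 in IMP1-OE, against 0.487 and 0.267 in null. CD81 made up 25.4% and 23.1% of the summed level of the 3 markers in IMP1-OE, against 16.6% and 11.4% in null. CD9 made up 29.6% and 31.0% in IMP1-OE, against 34.1% and 42.6% in null, while CD63 held 45.1% and 45.9% against 49.3% and 46.1%. The groups do not overlap for any of the 3 shares, and the CD63 shares of IMP1-OE replicate 2 and null replicate 2 all but meet. These ratios and shares were chosen after the values had been seen and have no test.

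**Figure D2:**
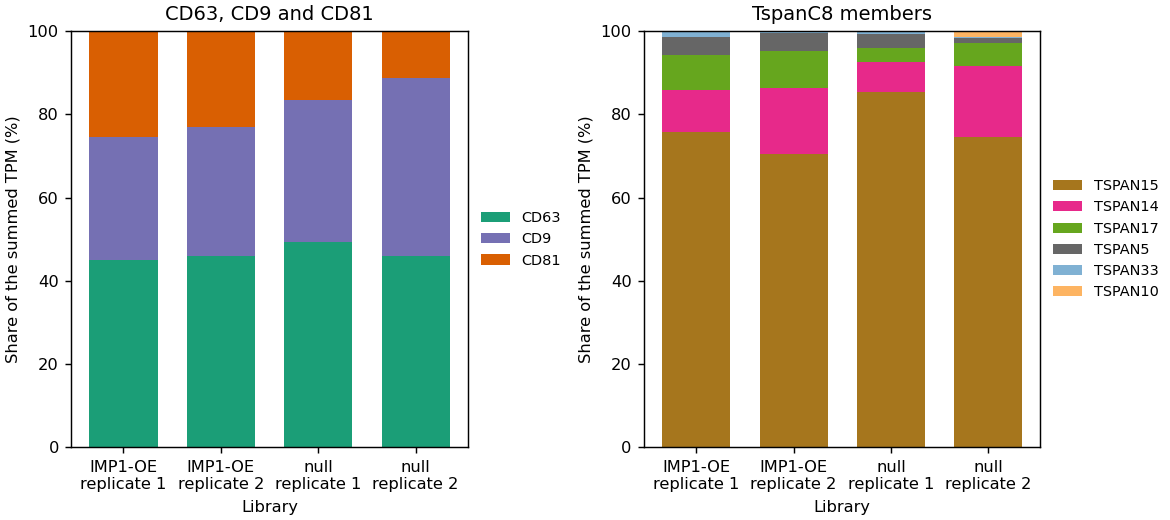
Share of the summed TPM in percent, with 1 bar per library, for the 3 vesicle markers (left) and the 6 TspanC8 members (right). The CD81 segment is largest in the IMP1-OE libraries (25.4% and 23.1%) and smallest in null replicate 2 (11.4%), and TSPAN15 fills 70.5% to 85.4% of every TspanC8 bar.

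The TspanC8 members (TSPAN5, TSPAN10, TSPAN14, TSPAN15, TSPAN17 and TSPAN33) carry 8 cysteines in the large extracellular loop, bind ADAM10 and guide it to different substrates. With all libraries, TSPAN17 had the smallest p of the family in edgeR (0.0312), while DESeq2 gave smaller ones to TSPAN12 (0.0225) and CD82 (0.0343) than to TSPAN17 (0.0434). Its counts were 128 and 109 in IMP1-OE, against 54 and 54 in null, or 12.2 and 10.4 CPM against 5.28 and 5.91 CPM. Both IMP1-OE libraries were higher by about the same amount, with a log2 fold change of 1.01 (SE 0.36, unadjusted p = 0.0312 and adjusted p = 0.46 in edgeR). Unlike that of CD81, this value moved little with the library left out, from 0.89 to 1.14.

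TSPAN5 had 7.99 and 6.65 CPM in IMP1-OE, against 7.14 and 1.75 CPM in null, so only null replicate 2 stood apart. Its log2 fold change was 0.71 (SE 0.69) with all libraries and 0.04 without null replicate 2. TSPAN33 had 27 and 9 counts in IMP1-OE, against 11 and 3 in null, and TSPAN14 had 94.6 and 123 CPM in IMP1-OE, against 75.2 and 124 CPM in null. TSPAN15 had 73.7 and 56.5 CPM in IMP1-OE, against 92.5 and 55.4 CPM in null. For these 3 genes the groups overlap, and 1 of the 5 tested TspanC8 members reached an unadjusted p under 0.05, beside 10.2% of all genes.

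By TPM, TSPAN15 was the main TspanC8 mRNA of these cells. It held 75.7% and 70.5% of the group's summed level in IMP1-OE, against 85.4% and 74.5% in null. TSPAN17 held 8.57% and 8.86% in IMP1-OE, against 3.34% and 5.44% in null. The sum itself was 108 and 87.6 TPM in IMP1-OE, against 115 and 82.3 TPM in null, so the groups overlap. TSPAN14 held 10.1% and 15.9% in IMP1-OE, against 7.20% and 17.2% in null. Its share and that of TSPAN15 depend on the long target of TSPAN14. In counts, TSPAN14 exceeded TSPAN15 in both IMP1-OE libraries (994 and 1291 against 774 and 594). It also did so in null replicate 2 (1129 against 506), but not in null replicate 1 (769 against 946).

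Among the other CD-named members, CD82 had 320 and 283 CPM in IMP1-OE, against 376 and 455 CPM in null. Both IMP1-OE libraries were lower, with a log2 fold change of -0.46 (SE 0.18, unadjusted p = 0.0460 and adjusted p = 0.484 in edgeR). It kept its direction without any of the 4 libraries, at -0.59 without null replicate 1 and -0.32 without null replicate 2. CD151 had 930 and 769 CPM in IMP1-OE, either side of the 880 and 895 CPM of the null libraries, with a log2 fold change of -0.06 (SE 0.17). CD37, a tetraspanin of B cells, had 4 and 32 counts in IMP1-OE, against 3 and 18 in null. In both groups most counts of CD37 were in replicate 2, and the spread within a group was larger than the difference between groups.

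TSPAN12, a co-receptor of Norrin and Frizzled-4 signalling, had the largest fitted difference on the lower side. Its counts were 79 and 40 in IMP1-OE, against 88 and 211 in null, or 7.52 and 3.80 CPM against 8.61 and 23.1 CPM. The IMP1-OE libraries were both lower, but IMP1-OE replicate 1 and null replicate 1 were close. The log2 fold change of -1.48 (SE 0.60, unadjusted p = 0.0478 and adjusted p = 0.485 in edgeR) moved to -0.60 without null replicate 2, and to -2.03 when null replicate 1 was left out instead. The Frizzled-4 gene FZD4 had 59 and 32 counts in IMP1-OE, against 70 and 21 in null, and overlapped. The marker CD14 was likewise highest in null replicate 2, and its part in the TSPAN12 values was not tested.

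TSPAN8 had the widest spread of the highly expressed members, at 825 and 616 CPM in IMP1-OE, against 1380 and 536 CPM in null. The IMP1-OE values lie between the null values, and the log2 fold change of -0.41 (SE 0.44) turned to 0.43 without null replicate 1, and came to -0.93 when null replicate 2 was left out instead. TSPAN3 had 218 and 206 CPM in IMP1-OE, against 343 and 227 CPM in null, with a log2 fold change of -0.43 (SE 0.24). It was lower in both IMP1-OE libraries, by little against null replicate 2, and the value came to -0.10 without null replicate 1, and to -0.70 when null replicate 2 was left out instead. TSPAN1 had 444 and 429 CPM in IMP1-OE, against 496 and 551 CPM in null, with a log2 fold change of -0.26 (SE 0.16).

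TSPAN4, found in the retraction fibres from which migrasomes form, had 28.3 and 28.0 CPM in IMP1-OE, against 15.7 and 24.6 CPM in null, with a log2 fold change of 0.48 (SE 0.28). TSPAN6 had 34.3 and 42.1 CPM in IMP1-OE, against 47.0 and 46.7 CPM in null, with a log2 fold change of -0.30 (SE 0.20). TSPAN31 had 25.7 and 19.8 CPM in IMP1-OE, against 30.1 and 27.9 CPM in null, with a log2 fold change of -0.35 (SE 0.24). The groups did not overlap for any of these 3 genes, and their edgeR adjusted p lay between 0.605 and 0.653.

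TSPAN13 had 45.5 and 41.0 CPM in IMP1-OE, against 48.1 and 22.1 CPM in null, and TSPAN9 had 15.3 and 14.2 CPM in IMP1-OE, against 11.9 and 17.3 CPM in null. ROM1, a partner of PRPH2 in the rod disc rim, had 13 and 32 counts in IMP1-OE, against 7 and 11 in null. It was the 1 gene of the photoreceptor pair with counts, and its log2 fold change of 1.17 had an SE of 0.89.

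**Figure D3:**
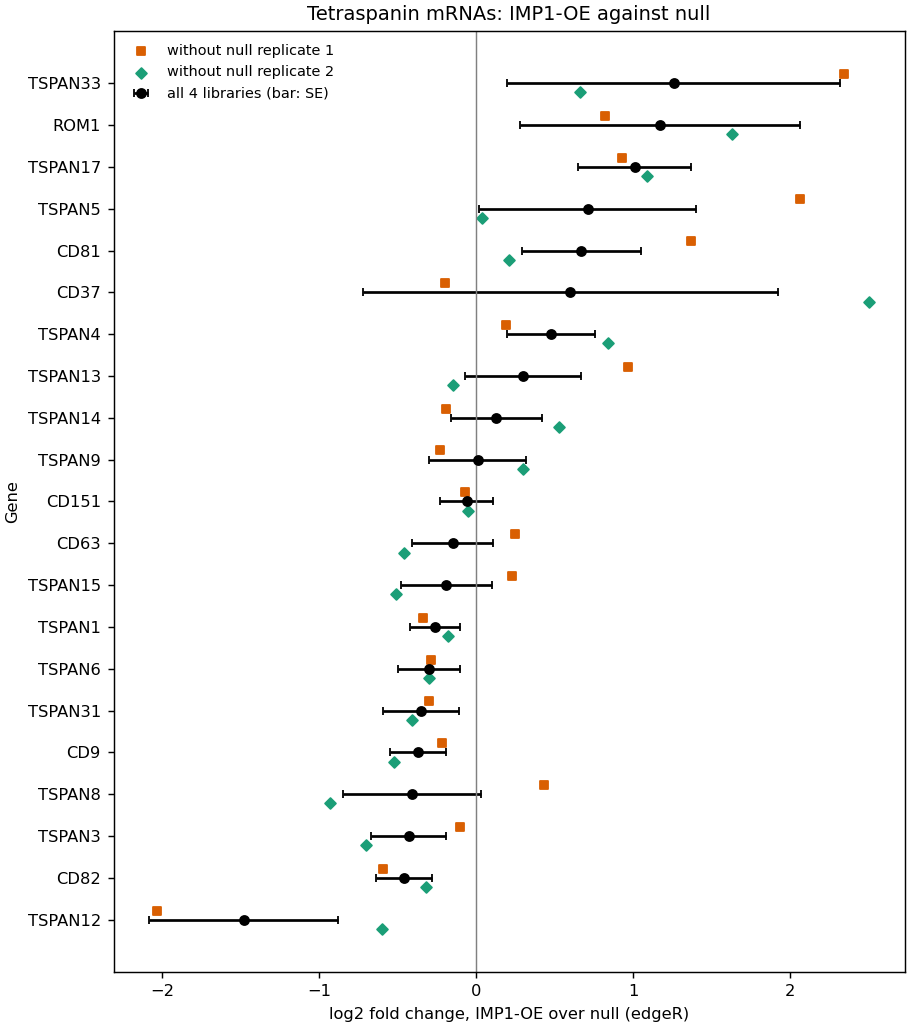
Log2 fold change, IMP1-OE over null, of the 21 tested members from edgeR with all 4 libraries (black, bar for the SE) and with either null library left out (orange square, green diamond). The 3 values of TSPAN17 lie close together near 1, whereas those of CD81, TSPAN5, TSPAN8 and TSPAN12 are spread by the choice of null library.

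The null libraries differed from each other in this family more than the IMP1-OE libraries did. The median absolute log2 difference between the libraries of a group, over the 21 tested members and with 1 CPM added, was 0.27 in IMP1-OE and 0.61 in null. Over all genes tested it was 0.22 in IMP1-OE and 0.36 in null. In null replicate 1 TSPAN5 stood 4.08-fold, TSPAN8 2.57-fold, CD81 2.24-fold and TSPAN13 2.18-fold above null replicate 2, whereas TSPAN12 was at 0.373 times its level there. Between the IMP1-OE libraries the same 5 genes had ratios of 1.20, 1.34, 1.23, 1.11 and 1.98 (replicate 1 over replicate 2). The epithelium markers were also lower in null replicate 2 than in null replicate 1, and their part in these values was not tested.

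**Figure D4:**
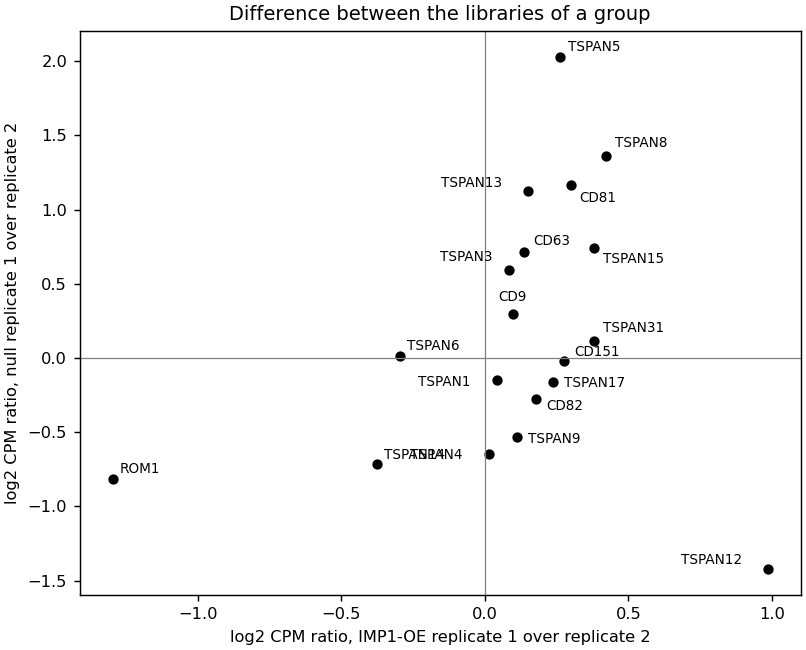
Log2 ratio of CPM between the 2 libraries of a group, IMP1-OE on the x axis and null on the y axis, for the tested members with more than 3 counts in every library. Points spread farther along the null axis, from TSPAN12 below to TSPAN5 above, than along the IMP1-OE axis, on which TSPAN12 and ROM1 lie farthest out.

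In RefSeq (GRCh38.p14, used only for names and gene order), 8 of the 33 members share part of their span with another gene of the deposited table. They are CD37, CD53, CD63 (with RDH5), TSPAN1 (with POMGNT1 and the P3R3URF genes), TSPAN16, TSPAN18, TSPAN31 (with the cell cycle kinase gene CDK4) and TSPAN32. Only whole gene spans were compared, so whether these genes share exon sequence was not checked. The labels do not say whether counting used strand. The counts of these 8 may therefore be less certain than the others. CD81 and TSPAN32 are direct neighbours, and so are CD82 and TSPAN18, while CD151 and TSPAN4 are separated by POLR2L. Within each of these 3 pairs the first gene was far more abundant.

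Tetraspanins act through partners, and 31 partner, substrate or co-factor genes were read from the same fit. Of the 28 tested, 22 had a fitted log2 fold change below 0 and 6 above 0, where 51.9% of all genes tested were below 0. Their median was -0.16, beside -0.02 over all genes. None passed an adjusted p of 0.05 in edgeR (0 of 28, background 0%). At an unadjusted p under 0.05 there were 6, all lower, where 5.84% of all genes tested were lower at that threshold. The number of partners at that threshold was not stable. It fell without either IMP1-OE library and rose without either null library, and so did the number over all genes tested. Without null replicate 1 edgeR called 3 partners (UPK3A, ITGA3 and CD44), where 6.46% of all genes were called. The number of lower partners was 17 of 28 without null replicate 1, where 6082 of all 12113 genes tested were lower. It was also 17 without IMP1-OE replicate 2, where 6298 genes were lower. With library totals alone as scaling, 18 partners were lower, where 5374 genes were lower. CPM values did not overlap between the groups for 13 of the 28, beside 43.2% of all genes. They were higher in IMP1-OE for 3, beside 21.3% of all genes, and lower for 10, beside 21.9%.

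ADAM10, the protease that TspanC8 members escort, had 1491 and 1574 counts in IMP1-OE, against 2030 and 1829 in null. This is 146 ± 5.46 CPM in IMP1-OE libraries, against 199 ± 1.13 CPM in null (mean ± SD, n = 2 each), with a log2 fold change of -0.45 (SE 0.16, unadjusted p = 0.0312 and adjusted p = 0.46 in edgeR). The related protease ADAM17 averaged 57.3 ± 10.3 CPM in IMP1-OE libraries, against 47.6 ± 7.28 CPM in null, and the groups overlapped.

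The direct CD9 and CD81 partner IGSF8 averaged 15.5 ± 1.49 CPM in IMP1-OE libraries, against 24.4 ± 0.474 CPM in null, with a log2 fold change of -0.65 (SE 0.24, adjusted p = 0.464 in edgeR). The other such partner, PTGFRN, averaged 71.0 ± 0.414 CPM in IMP1-OE libraries, against 67.3 ± 0.299 CPM in null, with a log2 fold change of 0.08 (SE 0.17). The tight junction genes CLDN1 and CLDN7 had log2 fold changes of -1.04 (SE 0.33) and -0.64 (SE 0.24). For CLDN1 this became -0.56 without null replicate 1, and -1.39 when null replicate 2 was left out instead. For CLDN7 it ranged from -0.91 to -0.41 with a library left out. SDC4, a syndecan whose cytoplasmic tail binds syntenin, had one of -0.62 (SE 0.21; -0.37 without null replicate 1, or -0.83 with null replicate 2 left out), and SDCBP, the gene of syntenin itself, one of -0.13 (SE 0.22). DESeq2 called CLDN7 and SDC4 when null replicate 2 was left out, where 2.11% of genes were called.

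UPK3A, which pairs with UPK1B in the urothelial plaque, had 20 and 31 counts in IMP1-OE, against 56 and 281 in null. It is the only partner that passes in the authors' deposited table, with an adjusted p of 0.0272 and a deposited log2 fold change of -0.12, where 1.28% of genes pass. DESeq2 run here on the same counts gave it the same adjusted p and a log2 fold change of -2.89. The deposited fold changes of the 2 genes UPK3A and ADAM10 were smaller in size, but not by a common factor. ADAM10 had a deposited log2 fold change of -0.27, against -0.45 in DESeq2 run here. How the deposited values were estimated is not stated. In edgeR the log2 fold change of UPK3A was -2.89 (SE 0.85, adjusted p = 0.446), -1.17 without null replicate 2 and -3.66 without null replicate 1. UPK1B, its tetraspanin partner, had 0 and 1 counts in IMP1-OE, against 2 and 0 in null. Of the laminin-binding integrin chains that associate with CD151, ITGA3 had a log2 fold change of -0.62 (SE 0.27), ITGA6 of -0.04 (SE 0.17), ITGB1 of -0.12 (SE 0.18) and ITGB4 of -0.22 (SE 0.18). ITGA3 stood at -0.18 without null replicate 2 and at -0.95 without null replicate 1, there with an edgeR adjusted p of 0.0182. CD44, an adhesion receptor, had a log2 fold change of 0.33, which was 1.16 without null replicate 1 (edgeR adjusted p = 0.015) and turned to -0.19 without null replicate 2.

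**Figure D5:**
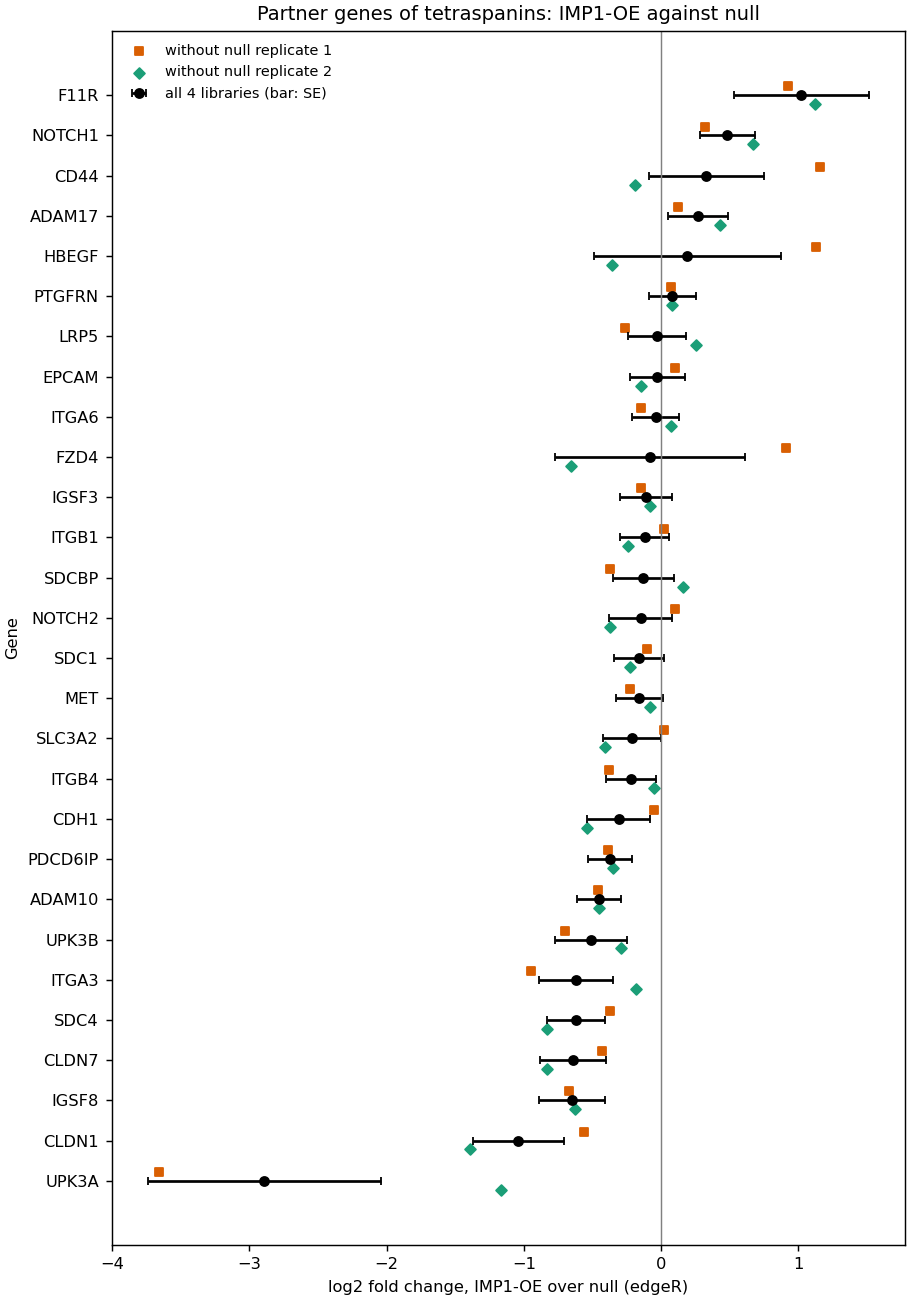
Log2 fold change, IMP1-OE over null, of the 28 tested partner genes from edgeR with all 4 libraries (black, bar for the SE) and with either null library left out (orange square, green diamond). ADAM10, IGSF8 and PDCD6IP keep nearly the same value whichever null library is left out, and UPK3A, CD44 and HBEGF do not.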

How the data were processed

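Without giving roles, the submitters' processing notes list kallisto 0.46.2, HISAT2 2.1.0, fastp 0.21, cutadapt 3.5 and DESeq. Per the labels' protocols, RNA was fragmented by heat, fragments of 18 to 50 nt were ligated to linkers with molecular identifiers and ribosomal RNA was depleted. No genome build is stated in these sources. The deposited values are estimated counts in kallisto's format, per the file headers, and are whole numbers for 20322 genes with 1 target each. The deposited TPM values are scaled to effective target length and to the same total in every library. The authors' deposited table gives log2 fold changes, p-values and a normalized signal (mean count) per gene from DESeq. A further 2 sample names in the count table match no label used here and were not analysed here.

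Counts were tested in edgeR 4.0.16 (R 4.3.3) with TMM scaling, the default low-count filter, the quasi-likelihood F test and Benjamini-Hochberg adjustment over all 12113 genes tested, all 4 libraries and no covariate. The SE of a log2 fold change is its size divided by the square root of F. CPM values are TMM-scaled. DESeq2 1.42.0 and limma 3.58.1 were alternatives, and omissions of a library in edgeR used the same genes. The fit was tested on simulated counts. Named genes are CD9, CD63, CD81, the members with the smallest p or highest level, and partners with the smallest p. The family and the gene lists were chosen with earlier results of these data known, and within the family the members follow from the symbols alone. Other members and partners were named after their values were seen.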

Additional observations from a re-analysis of the deposited data

How the results depend on the processing

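Counting error aside, 2 libraries per group and unequal null libraries limit every comparison, and members under about 10 counts carry no usable fold change. Over all genes, edgeR called 0, DESeq2's size factors, library totals alone and the omission of ARSI also gave 0, the other settings 22 (no filter on low counts), 15 (replicate block), 155 (edgeR likelihood ratio test), 164 (DESeq2) and 1 (limma-voom), and with a library left out 0 to 783 in edgeR and 27 to 1025 in DESeq2 (0 to 1025 over both). Members called stayed at 0 in each of these settings with all libraries, with 0 to 1 in edgeR (CD81, without null replicate 1) and 0 to 3 in DESeq2 when a library was left out (CD81, CD82 and TSPAN12 without null replicate 1, and TSPAN8, CD9 and TSPAN3 without null replicate 2). Partners called were 1 in DESeq2 (UPK3A), and 0 to 3 when a library was left out. Replicate numbers are shared by the groups but pair nothing in the labels. Deviations of same-numbered libraries correlated at 0.123 across genes, and the block called no member or partner. Of 432 values of single genes under alternatives, 25 had the opposite sign to the edgeR value with all libraries. Others passed the threshold where that edgeR value did not, among them UPK3A in DESeq2 with all libraries. The cause was not tested. With a library left out, by edgeR or DESeq2, log2 fold changes ran from -0.21 to 0.08 for CD151, -0.94 to 0.44 for TSPAN8, -0.47 to 0.27 for CD63, -0.51 to 0.25 for TSPAN15, -0.16 to 0.98 for TSPAN13, -0.19 to 0.53 for TSPAN14, -0.23 to 0.30 for TSPAN9 and -1.55 to 2.54 for CD37. With library totals alone, CD151 stood at 0.02. The median over members was -0.06, 0.02 with library totals alone, and -0.16 to -0.06 with a library left out (edgeR or DESeq2). Summed member TPM was 4970 in IMP1-OE and 5500 in null per effective length, and 5010 and 5540 per whole length.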
